A study of Mus musculus with 12 samples.

Results

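Rectal RNA of 12 mice was examined for 10 genes of the Nrf2 antioxidant response, the program that answers oxidants and electrophiles. The 10 genes were chosen by name: Nfe2l2, which encodes the transcription factor Nrf2, its inhibitor Keap1, and the target genes Nqo1, Gclc, Gclm, Txnrd1, Srxn1, Slc7a11, Gsr and G6pdx. Each of the 10 had 1 row among the 17734 genes of the deposited table, and all 10 passed the filter that left 15315 genes to test, a mean level of 0.1 FPKM or more in these mice. FPKM is a level per length of transcript and per depth of the library. The mice were adult male C57BL/6 mice in 4 groups of 3: normal mice, which drank water, normal mice receiving berberine (BBR, a plant alkaloid), colitis mice, and colitis mice receiving BBR. Colitis was produced by dextran sulfate sodium (DSS), a polymer that injures the bowel lining, that the mice drank for 7 days. By the labels' protocol, gavage with BBR went on for 6 days, and the study's methods give another duration. Each column is 1 mouse, and a mouse is named here by its group and its number in the labels.

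Nrf2 is made all the time and is held down by Keap1, which binds it in the cytoplasm and passes it to a Cul3 ubiquitin ligase for destruction. Oxidants and electrophiles modify cysteines of Keap1, Nrf2 then escapes, enters the nucleus, pairs with a small Maf protein and binds the antioxidant response element in front of its target genes. Its activity is thus set largely at the protein level, and the RNA of its target genes is the usual readout. The targets named above fall into a thioredoxin arm (Txnrd1, Srxn1), a glutathione arm (Gclc, Gclm, Gsr, Slc7a11), a quinone reductase (Nqo1) and a source of NADPH (G6pdx). In the colon, luminal bacteria, the products of infiltrating leukocytes and dietary chemicals all engage this pathway.

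The core of the antioxidant response element was read as TGACNNNGC, or GCNNNGTCA on the opposite strand, in the window from 250 bases before to 50 bases after the transcription start. RefSeq promoters of the GRCm38 build, which is not the mm9 build the authors mapped to, were at hand for 8 of the 10 genes. Gclc and Gsr have no entry in the table used. A match was found for 5 of the 8 genes, against 12.4% of all 32851 promoters and 16.6% of the 12160 tested genes with a promoter. The 5 matches are shown because these letters are what the response genes are held to share, with the core in capitals and 10 bases on either side, read on the gene's own strand.
Nfe2l2: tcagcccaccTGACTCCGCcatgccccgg
Srxn1: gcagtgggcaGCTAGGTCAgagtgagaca
Gclm: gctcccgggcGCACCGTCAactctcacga
Txnrd1: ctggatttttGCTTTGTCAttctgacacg
G6pdx: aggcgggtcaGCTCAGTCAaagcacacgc
The Nfe2l2 match is in the forward letters and the other 4 are in the reverse letters. The first base of the core lies at -240 relative to the start in Nfe2l2, -134 in Gclm, -92 in Txnrd1, -57 in G6pdx and 29 in Srxn1. The windows are chr2:75704614-75704913 on the minus strand for Nfe2l2, chr2:152105274-152105573 on the plus strand for Srxn1, chr3:122245307-122245606 on the plus strand for Gclm and chrX:74428831-74429130 on the minus strand for G6pdx. Txnrd1 has 3 windows, and the match is in chr10:82858956-82859255 on the plus strand. That window is printed whole, since Txnrd1 is the member whose level passed the adjusted test described further on.
Txnrd1 window: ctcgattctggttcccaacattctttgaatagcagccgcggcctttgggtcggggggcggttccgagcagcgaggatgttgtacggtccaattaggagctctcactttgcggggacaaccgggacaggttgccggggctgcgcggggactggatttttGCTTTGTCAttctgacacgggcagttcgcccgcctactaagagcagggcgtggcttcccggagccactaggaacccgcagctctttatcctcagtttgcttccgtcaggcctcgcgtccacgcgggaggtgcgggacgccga
No match was found in the windows of Keap1, Nqo1 and Slc7a11, which says only that these letters are not in these 300 bases. A match is a description of letters and not of a bound site.

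The mice numbered 4, of which each group holds 1, stood apart from the other 8. Their columns summed to 482194 to 504337 FPKM, whereas those of the mice numbered 1 to 3 summed to 696286 to 765876 FPKM, and they listed 872 to 1086 genes at 0 against 1332 to 1926. Low values fell on steps, and the step that 1 read makes in FPKM multiplied by bases was 50.5 to 59.5 for the mice numbered 4, whereas it was 61.5 to 67.0 for the rest. The number of bases taken off the transcript length that made the steps most regular was 20 to 49 for the mice numbered 4, whereas it was 260 to 290 for the rest. How the columns of the mice numbered 4 were scaled is not given in the sources used here, and differences within each set of mice are also given below. Colitis mice also had a lower median over all genes than normal mice, by 0.32 on the log2 scale, which was 0.049 after quantile normalization, so some differences are also given against that shift. Markers of epithelium were high in every mouse, with summed levels of 6780 to 13158 FPKM over 8 genes and none at 0. Summed neutrophil markers were 0.26 to 2.84 FPKM in the 6 mice without DSS, 45.2 to 493 FPKM in colitis mice and 2.59 to 218 FPKM in colitis mice receiving BBR. Summed smooth muscle markers were 1628 to 4839 FPKM without DSS, 70.9 to 651 FPKM in colitis mice and 475 to 3435 FPKM in colitis mice receiving BBR. In the same order of mice, macrophage sums were 125 to 202, 215 to 668 and 116 to 242 FPKM, endothelium sums 16.4 to 20.2, 4.16 to 10.3 and 3.61 to 11.1 FPKM, and sums for B and plasma cells 158 to 278, 36.1 to 103 and 6.48 to 38.8 FPKM. Sums of neutrophil, macrophage, smooth muscle, endothelium, and B and plasma cell markers thus did not overlap between colitis mice and mice without DSS. The lowest neutrophil sum of each group with DSS, 45.2 and 2.59 FPKM, was in the mouse numbered 4. The highest smooth muscle sum with DSS, 3435 FPKM, was in colitis mouse receiving BBR 4. The part of these marker differences in later disagreements between the sets of mice was not tested. In bulk RNA, fewer cells of a type and less RNA per cell cannot be told apart, and the part of these cell types in the results on the response genes was not tested.

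In normal mice the 10 genes spanned a wide range of levels. Nfe2l2 was the highest, with 95.6 ± 18.9 FPKM (SD, n = 3), and Slc7a11, the membrane carrier that imports cystine, was the lowest, with 0.643 ± 0.462 FPKM. Between them in falling order stood Txnrd1, G6pdx, Srxn1, Gsr, Gclm, Gclc, Nqo1 and Keap1. The values of neighbours in this order overlapped except between Nfe2l2 and Txnrd1, between Srxn1 and Gsr and between Keap1 and Slc7a11. Over all 12 mice the highest value was 1.98 times the lowest for Nfe2l2 and 2.03 times for Keap1. Among the targets it was 2.21 times for G6pdx, 2.48 times for Gsr, 3.5 to 4.31 times for Txnrd1, Gclm, Nqo1 and Srxn1, 6.81 times for Gclc and 18.2 times for Slc7a11, whose lowest value was near the limit of the depth.

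**Figure D1:**
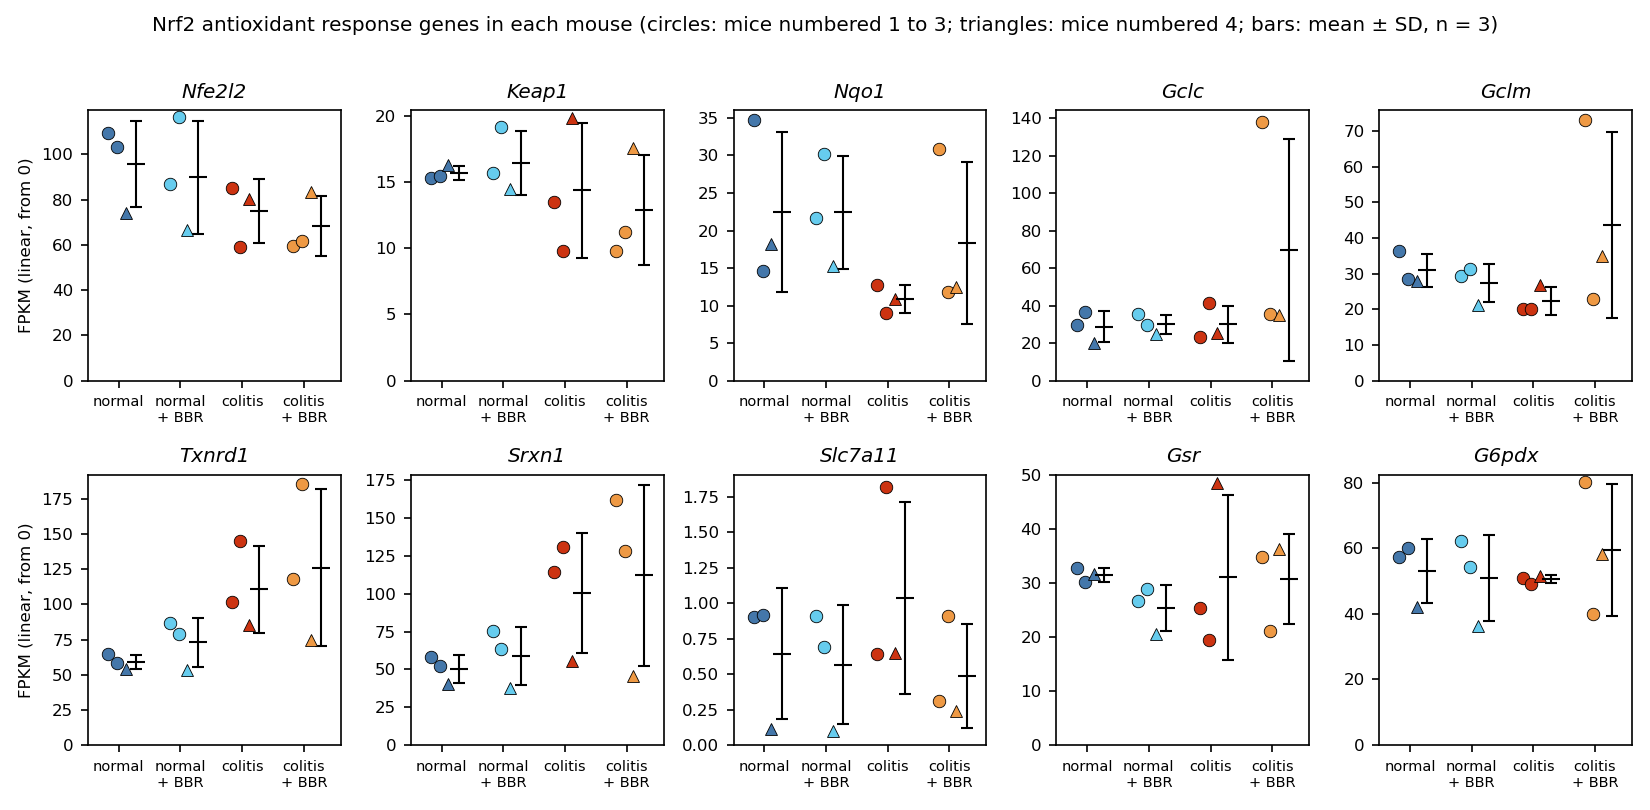
FPKM of each response gene (linear axes from 0) in each mouse, by group. Circles are mice numbered 1 to 3, triangles the mouse numbered 4, and bars the mean ± SD of 3 mice. Txnrd1 lies higher in all 3 colitis mice (85.3 to 145 FPKM) than in all 3 normal mice (54.4 to 64.5 FPKM), and Gclc, Gclm and Nqo1 each have 1 colitis mouse receiving BBR far above its group.

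The first question was what DSS did to the response. Txnrd1 encodes cytosolic thioredoxin reductase, which hands electrons from NADPH to thioredoxin. Its level was 64.5, 58.3 and 54.4 FPKM in normal mice 1, 3 and 4. In colitis mice 1, 2 and 4 it was 102, 145 and 85.3 FPKM. Every colitis mouse was above every normal mouse, and the groups did not overlap. The difference in colitis against normal mice was 0.87 on the log2(FPKM + 0.1) scale (SE 0.32, 95% interval 0.17 to 1.58), or 1.83-fold, with a limma P of 0.0195 and an adjusted p of 0.161. All log2 differences below are on this scale, which understates changes of low genes, and adjusted p-values are limma's with Benjamini-Hochberg adjustment over the 15315 genes. The Txnrd1 difference was 0.99 in the mice numbered 1 to 3 and 0.65 in the mice numbered 4, and with the mice numbered 4 as a block its adjusted p was 0.0392. The exact permutation test (two-sided) gave p = 0.1 for Txnrd1, the smallest value that groups of 3 allow.

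With BBR in both arms, Txnrd1 was 86.8, 79.2 and 53.0 FPKM in normal mice receiving BBR 1, 3 and 4. It was 118, 186 and 74.8 FPKM in colitis mice receiving BBR 2, 3 and 4. The colitis mouse numbered 4 was below 2 of the normal mice receiving BBR, so these groups overlapped. The difference was 0.72 (SE 0.32), with a limma P of 0.0456 and an adjusted p of 0.250. With 1 mouse left out at a time it was 0.40 to 1.05. Averaged over both arms, 6 mice against 6, Txnrd1 rose with DSS by 0.80 on the log2 scale (SE 0.23, 95% interval 0.30 to 1.30), or 1.74-fold, with a limma P of 0.00459 and an adjusted p of 0.0427. The exact two-sided permutation test within arms gave p = 0.015, where 0.005 is the smallest it can give. Against the median of all genes, which lay at -0.36, the rise was 1.16. The call was a narrow one. The adjusted p was 0.0506 with no filter on low values and 0.0532 with no trend in the estimate of the spread. Leaving out 1 mouse at a time, it passed the limit only without colitis mouse 4 or without colitis mouse receiving BBR 4, and was 0.0599 to 0.0924 without any 1 of the other 10 mice, with log2 differences of 0.63 to 0.96 over all 12 fits. With the mice numbered 4 as a block the adjusted p was 0.00735, and in the mice numbered 1 to 3 alone the difference was 0.91 with an adjusted p of 0.0134, against 0.57 in the mice numbered 4. In these last 2 fits 34.9% and 40.4% of all genes passed the limit.

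The highest Txnrd1 levels, 186 and 145 FPKM, were in the pair of mice with the highest summed squamous markers, 354 FPKM in colitis mouse receiving BBR 3 and 443 FPKM in colitis mouse 2. That squamous sum was 5.52 to 169 FPKM in the 6 mice without DSS and 19.8 to 93.8 FPKM in the other 4 mice with DSS. It came mostly from Sprr1a, and 7 of the 8 listed genes were in the table. Krt13 was 5.18 FPKM in colitis mouse 2 and 1.84 FPKM in colitis mouse receiving BBR 3, against 0.21 to 1.21 FPKM in the 6 mice without DSS. However, it was 2.40 FPKM in colitis mouse 1, and 0.44 to 0.66 FPKM in the other 3 mice with DSS. Dsg3 was 0.92 and 0.90 FPKM in these 2 mice and at most 0.20 FPKM in the other 10. Krt14 was 0.16 to 1.96 FPKM over the 12 mice, and Krt5, Krt4 and Trp63 reached at most 0.12, 0.03 and 0.18 FPKM in any mouse. The summed goblet markers, 7 genes of which none was at 0, were highest in the 3 mice with the highest Txnrd1 levels. The sums were 83177 FPKM in colitis mouse receiving BBR 3, 74595 FPKM in colitis mouse 2 and 64615 FPKM in colitis mouse receiving BBR 2. These were the 3 highest goblet sums of the 12 mice, in the same order as the 3 highest Txnrd1 levels. The goblet sum was 15031 to 34467 FPKM in the 6 mice without DSS and 9937 to 17467 FPKM in the other 3 mice with DSS. It thus did not follow Txnrd1 over all mice, and its lowest value, 9937 FPKM, was in colitis mouse 4, where Txnrd1 was 85.3 FPKM. The sum came mostly from Zg16, Tff3 and Clca1. These and Muc2 were each highest in the 3 mice named above, whereas Agr2, Spdef and Fcgbp were not. The part of either cell type in the Txnrd1 result was not tested.

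Srxn1 encodes sulfiredoxin, which repairs over-oxidized peroxiredoxins with the help of thioredoxin. Its level was 58.5, 52.0 and 40.6 FPKM in normal mice 1, 3 and 4, and 115, 131 and 55.4 FPKM in colitis mice 1, 2 and 4. In normal mice receiving BBR 1, 3 and 4 it was 75.2, 63.6 and 37.6 FPKM, and in colitis mice receiving BBR 2, 3 and 4 it was 162, 128 and 45.7 FPKM. The 4 mice with DSS numbered 1 to 3 were above every mouse without DSS, whereas the pair of mice with DSS numbered 4 lay among the mice without DSS. The 3 mice with the highest Srxn1 levels were the 3 with the highest goblet sums, in another order, and the part of goblet cells in the Srxn1 result was not tested. The difference in colitis against normal mice was 0.92 (SE 0.47), with a limma P of 0.0734 and an adjusted p of 0.267, and 0.0369 with the mice numbered 4 as a block. With BBR in both groups it was 0.80 (SE 0.47), with an adjusted p of 0.322, and 0.0318 in the mice numbered 1 to 3 alone. The difference averaged over both arms was 0.86 (SE 0.33, 95% interval 0.14 to 1.58), with a limma P of 0.0234, an adjusted p of 0.0851 and an exact permutation p of 0.05. In the mice numbered 1 to 3 the same difference was 1.10, with an adjusted p of 0.00527, and in the mice numbered 4 it was 0.37. With the mice numbered 4 as a block the adjusted p was 0.00632. Without colitis mouse 4 or without colitis mouse receiving BBR 4 it was 0.0384 and 0.00977, and without any 1 of the others it was 0.0936 to 0.180.

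Txnrd1 and Srxn1 followed each other over the mice. Pearson's r of their log2 levels was 0.89 over the 12 mice (Spearman's rho 0.92), and 0.92 without colitis mouse receiving BBR 2. After removal of group means and of the mice numbered 4 as a block it was 0.47. These points share the scaling of their columns, and the mice numbered 4 form the low end of each group.

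**Figure D2:**
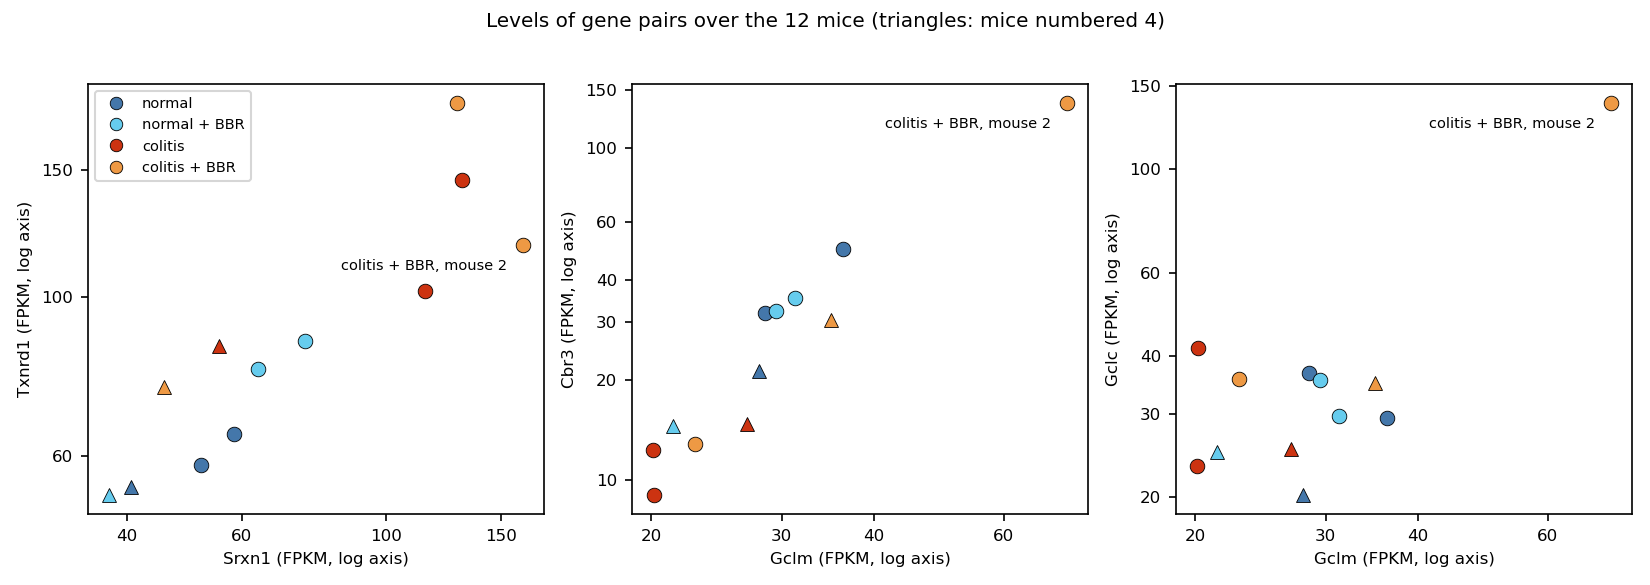
Levels of gene pairs over the 12 mice (FPKM, log axes on both sides). Points are mice coloured by group, and triangles are mice numbered 4. Srxn1 and Txnrd1 climb together, Gclm and Cbr3 do so too, and Gclm and Gclc are joined mainly by colitis mouse receiving BBR 2 (73.1 and 138 FPKM).

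Neither regulator passed the test for DSS. Nfe2l2 was 109.5, 103 and 74.0 FPKM in normal mice 1, 3 and 4 and 85.2, 58.8 and 80.4 FPKM in colitis mice 1, 2 and 4. In normal mice receiving BBR 1, 3 and 4 it was 86.7, 116 and 66.7 FPKM, and in colitis mice receiving BBR 2, 3 and 4 it was 59.5, 61.9 and 83.4 FPKM. The groups overlapped in both arms. The averaged difference was -0.36 (SE 0.18, 95% interval -0.76 to 0.032), with an adjusted p of 0.154, and it differed from the median of all genes by -0.00042. The sets of mice disagreed in direction, with -0.66 in the mice numbered 1 to 3 and 0.22 in the mice numbered 4.

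Keap1 was 15.3, 15.5 and 16.3 FPKM in normal mice 1, 3 and 4 and 13.5, 9.78 and 19.9 FPKM in colitis mice 1, 2 and 4. In the groups receiving BBR it was 15.7, 19.1 and 14.5 FPKM without DSS (mice 1, 3 and 4) and 9.82, 11.3 and 17.6 FPKM with DSS (mice 2, 3 and 4). The 4 mice with DSS numbered 1 to 3 were below every mouse without DSS, and the pair numbered 4 were among the highest 3 of the 12. The averaged difference was -0.28 (SE 0.20), with an adjusted p of 0.283, and it was -0.57 in the mice numbered 1 to 3 and 0.28 in the mice numbered 4. In the mice numbered 1 to 3 alone the adjusted p was 0.0290 for Keap1 and 0.0214 for Nfe2l2, where the median of all genes was -0.49 and 40.4% of all genes passed the limit. With all 12 mice, the averaged Keap1 difference was 0.015 after quantile normalization and 0.11 after centring on the median, and the Nfe2l2 difference was 0.030 after centring.

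Nqo1, the quinone reductase most often used as a marker of Nrf2 activity, stood on the other side. It was 34.7, 14.6 and 18.2 FPKM in normal mice 1, 3 and 4 and 12.7, 8.95 and 10.9 FPKM in colitis mice 1, 2 and 4. Every colitis mouse was below every normal mouse, and the group means were 22.5 ± 10.7 and 10.8 ± 1.87 FPKM (SD, n = 3). The difference was -0.96 (SE 0.41, 95% interval -1.86 to -0.059), with a limma P of 0.0388 and an adjusted p of 0.210. With 1 mouse left out at a time it was -1.22 to -0.60. It was -1.07 in the mice numbered 1 to 3 and -0.74 in the mice numbered 4, and -0.64 against the median of all genes. In mice receiving BBR it was 21.7, 30.3 and 15.3 FPKM without DSS (mice 1, 3 and 4). With DSS it was 30.9, 11.8 and 12.5 FPKM (mice 2, 3 and 4), where mouse 2 was higher than 5 of the 6 mice without DSS. The averaged difference was -0.67 (SE 0.29), with a limma P of 0.0410, an adjusted p of 0.115 and an exact permutation p of 0.075, and without colitis mouse receiving BBR 2 it was -0.89 with an adjusted p of 0.0599.

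Gclm, the modifier subunit of the enzyme that makes the first step of glutathione synthesis, also did not overlap between colitis and normal mice. It was 36.3, 28.5 and 28.0 FPKM in normal mice 1, 3 and 4 and 20.1, 20.2 and 26.9 FPKM in colitis mice 1, 2 and 4. All 3 colitis mice were lower, colitis mouse 4 by little. The difference was -0.47 (SE 0.35), with an adjusted p of 0.421, or -0.15 against the median of all genes, and it was -0.67 in the mice numbered 1 to 3 and -0.056 in the mice numbered 4. Gclc, the catalytic subunit of the same enzyme, was 29.5, 36.8 and 20.3 FPKM in normal mice 1, 3 and 4 and 23.3, 41.5 and 25.4 FPKM in colitis mice 1, 2 and 4. These overlapped, and the difference was 0.052 (SE 0.47, 95% interval -0.96 to 1.07), with -0.084 in the mice numbered 1 to 3 and 0.32 in the mice numbered 4.

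Slc7a11 was 0.90, 0.92 and 0.11 FPKM in normal mice 1, 3 and 4, and 0.64, 1.82 and 0.65 FPKM in colitis mice 1, 2 and 4. In mice receiving BBR it was 0.91, 0.69 and 0.10 FPKM without DSS (mice 1, 3 and 4) and 0.31, 0.91 and 0.24 FPKM with DSS (mice 2, 3 and 4). The groups overlapped, and the lowest value of 3 of the 4 groups was in the mouse numbered 4. A level of 0.10 FPKM corresponds to 4.03 to 15.5 reads, depending on the transcript, so its 2 lowest values, 0.10 and 0.11 FPKM, were near the limit of the depth. The difference in colitis against normal mice was 0.77 with an SE of 0.78, or 0.24 in the mice numbered 1 to 3 and 1.84 in the mice numbered 4. Gsr, glutathione reductase, had a mean of 31.6 ± 1.30 FPKM (SD, n = 3) in normal mice. The mean of colitis mice was 31.1 ± 15.3 FPKM, where colitis mouse 4 had 48.5 FPKM and the others 25.3 and 19.5 FPKM. G6pdx, which makes NADPH in the pentose phosphate pathway, had means of 53.2 ± 9.80 and 50.6 ± 1.28 FPKM in these groups, with a difference of -0.053 (95% interval -0.65 to 0.54). The sets of mice went opposite ways for both, with -0.50 and 0.61 for Gsr and -0.23 and 0.30 for G6pdx in the mice numbered 1 to 3 and 4.

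Counted over the 10 genes, colitis against normal mice gave 4 higher and 6 lower values, with a median of -0.091 beside -0.32 over all genes. The differences not yet given were -0.35 for Nfe2l2, -0.18 for Keap1 and -0.13 for Gsr. At the unadjusted limit of 0.05 that the study used, 2 of the 10 were called, Txnrd1 higher and Nqo1 lower, where 21.4% of all genes were called. None passed the adjusted limit, against 1.08% of all genes. When a block for the mice numbered 4 was added to the fit, 2 of the 10 passed this limit, Txnrd1 and Srxn1, both higher, and so did 9.22% of all genes. In the reported fit 3 of the 10 did not overlap between groups, against 29.3% of all genes. In colitis mice receiving BBR against normal mice receiving BBR, 1 of 10 had an unadjusted P of at most 0.05 (19.7% of all genes), none passed the adjusted limit (0.0392%), and none was without overlap (20.2%). The differences besides those of Txnrd1 and Srxn1 were 0.90 for Gclc, 0.52 for Gclm, 0.25 for Gsr, 0.20 for G6pdx, -0.060 for Slc7a11, and -0.38 each for Nfe2l2, Keap1 and Nqo1. Without colitis mouse receiving BBR 2, Gclc was 0.25, Gclm 0.068, Srxn1 0.44, Nqo1 -0.83, G6pdx -0.039 and Slc7a11 0.11. The sets of mice differed in sign for 5 of the 10, namely Nfe2l2, Keap1, Slc7a11, Gsr and G6pdx, all negative in the mice numbered 1 to 3 and positive in the mice numbered 4. For the averaged effect of DSS, 3 of 10 had an unadjusted P of at most 0.05 (39.0% of all genes), Txnrd1 and Srxn1 higher and Nqo1 lower, and Txnrd1 alone passed the adjusted limit (14.3%). All genes past the adjusted limit were split into 2.85% higher and 11.4% lower, or 437 and 1751 genes. That split was 719 higher and 559 lower under quantile normalization and 654 higher and 371 lower after centring on the median. Higher values at the unadjusted limit were 2 of the 10 genes and 5.75% of all genes, and lower values 1 of the 10 and 33.3% of all genes. The members not yet given for the averaged effect were Gclc with 0.48, Slc7a11 with 0.36, G6pdx with 0.076, Gsr with 0.061 and Gclm with 0.028, none past either limit. In the mice numbered 1 to 3 Slc7a11, G6pdx, Gsr and Gclm were at -0.12, -0.13, -0.27 and -0.12, and in the mice numbered 4 at 1.30, 0.49, 0.71 and 0.33, whereas Gclc was at 0.51 and 0.40. Without colitis mouse receiving BBR 2, Gclc was 0.15 with a limma P of 0.486, Srxn1 0.68, Gclm -0.20, G6pdx -0.046 and Gsr 0.0067. The median of the 10 genes for the averaged effect was 0.069, beside -0.36 over all genes. It was 0.25 beside -0.040 after quantile normalization.

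**Figure D3:**
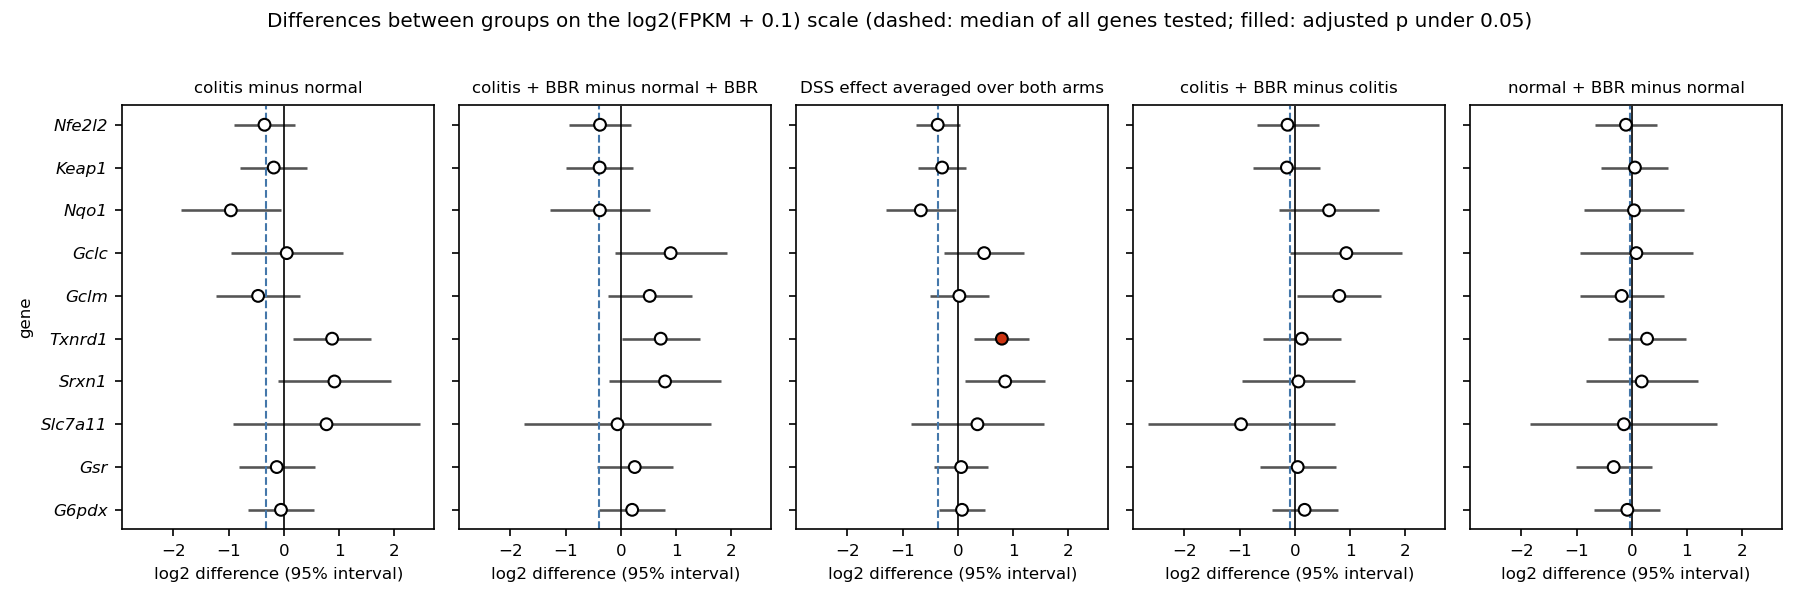
Differences between groups for each response gene on the log2(FPKM + 0.1) scale, with 95% intervals from the limma fit. The dashed line is the median of all 15315 genes, and a filled point has an adjusted p under 0.05. The only filled point is Txnrd1 for the averaged effect of DSS (0.80), and every interval for BBR in normal mice includes 0.

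The second question was what BBR did. In normal mice BBR left no member past either limit, with differences of 0.28 for Txnrd1, 0.18 for Srxn1, 0.084 for Gclc, 0.058 for Keap1, 0.041 for Nqo1, -0.079 for G6pdx, -0.10 for Nfe2l2, -0.14 for Slc7a11, -0.18 for Gclm and -0.33 for Gsr, and the sets of mice differed in sign for 5 of the 10. None had an unadjusted P of at most 0.05, against 1.36% of all genes, and none passed the adjusted limit, where the share of all genes was 0 as well. The 95% intervals were widest for Slc7a11, -1.84 to 1.55, and narrowest for Nfe2l2, -0.67 to 0.46, so differences within them could not be told from none with 3 mice a group. Gsr alone did not overlap between these groups, against 9.62% of all genes. It was 32.8, 30.2 and 31.8 FPKM in normal mice 1, 3 and 4 and 26.7, 28.9 and 20.6 FPKM in normal mice receiving BBR 1, 3 and 4. All 3 mice receiving BBR were lower, with a limma P of 0.320.

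In colitis mice several differences with BBR rested on 1 mouse. Gclm was 20.1, 20.2 and 26.9 FPKM in colitis mice 1, 2 and 4 and 73.1, 22.9 and 35.0 FPKM in colitis mice receiving BBR 2, 3 and 4. Mouse 2 was the highest of all 12 mice, whereas mouse 3 lay within the range of colitis mice. The difference was 0.81 (SE 0.35, 95% interval 0.046 to 1.57), with a limma P of 0.0395 and an adjusted p of 0.742, and without mouse 2 it was 0.35 (SE 0.26) with a limma P of 0.208.

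Gclc was 138, 35.7 and 34.9 FPKM in colitis mice receiving BBR 2, 3 and 4. The last of these lay within the range of the 3 colitis mice, 23.3 to 41.5 FPKM, as did mouse 3, and mouse 2 stood at more than 3 times any other mouse of the study. The difference was 0.93 (SE 0.47), with a limma P of 0.0684, and 0.28 (SE 0.31) without mouse 2, with a limma P of 0.386. For Nqo1 the difference was 0.62 (SE 0.41), with a limma P of 0.158, and 0.18 (SE 0.37) without mouse 2. G6pdx was 80.3, 40.1 and 58.4 FPKM in these mice, again highest in mouse 2, with a difference of 0.18 that became -0.065 without it.

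Srxn1 and Txnrd1 hardly differed between colitis mice with and without BBR. The difference was 0.066 for Srxn1 (95% interval -0.95 to 1.08), and -0.29 without mouse 2. It was 0.13 for Txnrd1 (95% interval -0.58 to 0.83), and the same 0.13 without mouse 2. Nfe2l2 and Keap1 differed by -0.13 and -0.14, Gsr by 0.053, and Slc7a11 by -0.97 with an SE of 0.78. In the mice numbered 1 to 3 and 4 the differences had opposite signs for Txnrd1 (0.28 and -0.19), Srxn1 (0.24 and -0.28), Gsr (0.29 and -0.41) and Nfe2l2 (-0.22 and 0.052), while Gclm was 1.02 and 0.38, Gclc 1.17 and 0.46 and Nqo1 0.83 and 0.20. Among the 10 genes 7 were higher and 3 lower. Only Gclm had an unadjusted P of at most 0.05, against 6.39% of all genes, none passed the adjusted limit, where the share of all genes was 0, and none was without overlap, against 7.08% of all genes. The median over the 10 genes was 0.096 beside -0.092 over all genes, and -0.0056 beside -0.018 without mouse 2.

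The effect of BBR averaged over both DSS arms called none of the 10 genes at the unadjusted limit, against 4.94% of all genes, and none at the adjusted limit, where the share of all genes was 0. The differences were 0.51 for Gclc, 0.33 for Nqo1, 0.31 for Gclm, 0.20 for Txnrd1, 0.12 for Srxn1, 0.049 for G6pdx, -0.042 for Keap1, -0.12 for Nfe2l2, -0.14 for Gsr and -0.56 for Slc7a11, and the sets of mice differed in sign for 7 of the 10. Without colitis mouse receiving BBR 2, Gclc was 0.18, Nqo1 0.11, Gclm 0.084, Srxn1 -0.057, G6pdx -0.072 and Keap1 0.044. The interaction, which asks whether BBR acted differently with and without DSS, called none at the unadjusted limit, against 2.42% of all genes, and none at the adjusted limit, where the share of all genes was again 0. Its lowest P among the 10 was for Gclm, with 0.99 (SE 0.49) and a limma P of 0.0679. The other interaction terms were 0.85 for Gclc, 0.58 for Nqo1, 0.38 for Gsr, 0.26 for G6pdx, -0.026 for Nfe2l2, -0.11 for Srxn1, -0.15 for Txnrd1, -0.20 for Keap1 and -0.83 for Slc7a11. Without colitis mouse receiving BBR 2 the interaction was 0.54 for Gclm with a limma P of 0.158, 0.20 for Gclc, 0.13 for Nqo1, 0.014 for G6pdx, -0.47 for Srxn1, -0.029 for Keap1 and 0.064 for Nfe2l2.

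Colitis mouse receiving BBR 2 stood apart in the targets of Nrf2. It was the highest of the 12 mice for 4 of the 10 genes (Gclc, Gclm, Srxn1 and G6pdx) and for 12 of 28 other genes taught as Nrf2 targets, whereas it was highest for 3.71% of all genes tested. It lay at least 1 on the log2 scale above the mean of the other 2 mice of its group for 4 of the 10 (Gclc 1.96, Gclm 1.36, Nqo1 1.34, Srxn1 1.08), against 3.70% of all genes. The same held for 9 of the 28 other targets and for none of 14 regulators of Nrf2. Its median deviation was 0.53 over the 10 genes and 0.53 over the other targets, beside -0.28 over all genes.

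Among the targets in which this mouse was highest, Hmox1, heme oxygenase, was 141 FPKM there and at most 26.1 FPKM in the other 11 mice. Gsta1, a glutathione transferase, was 406 FPKM against at most 146 FPKM, and Cbr3, a carbonyl reductase, was 136 FPKM against at most 49.6 FPKM. The ferritin light chain Ftl1 was 7367 FPKM against at most 2987 FPKM. The same mouse was the lowest of the 12 for 3 of the 28 other targets, Ephx1 (3.80 FPKM), Blvrb (27.6 FPKM) and Me1, and for none of the 10 genes, against 24.1% of all genes. Its cell type markers also set it apart. It had the lowest epithelium sum of the 12 mice, 6780 FPKM against at least 7615 FPKM, and the lowest sum of B and plasma cell markers, 6.48 FPKM over 6 genes against at least 26.9 FPKM. Its goblet sum, given above, was the third highest. Its neutrophil sum of 218 FPKM and its squamous sum of 37.3 FPKM were within the range of the other mice with DSS. The epithelium sum came mostly from Krt8 and Krt19, both lowest in this mouse, as was Cdh1. The other listed epithelium genes, such as Epcam with 1012 FPKM and Vil1 with 369 FPKM, were within the range of the other mice. The part of these cell types in the levels of the targets in this mouse was not tested. It also had the most genes at 0 of the 12 mice, 1926, where the next had 1781. The labels give nothing that sets this mouse apart, and the pattern in the targets was noticed in these data.

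**Figure D4:**
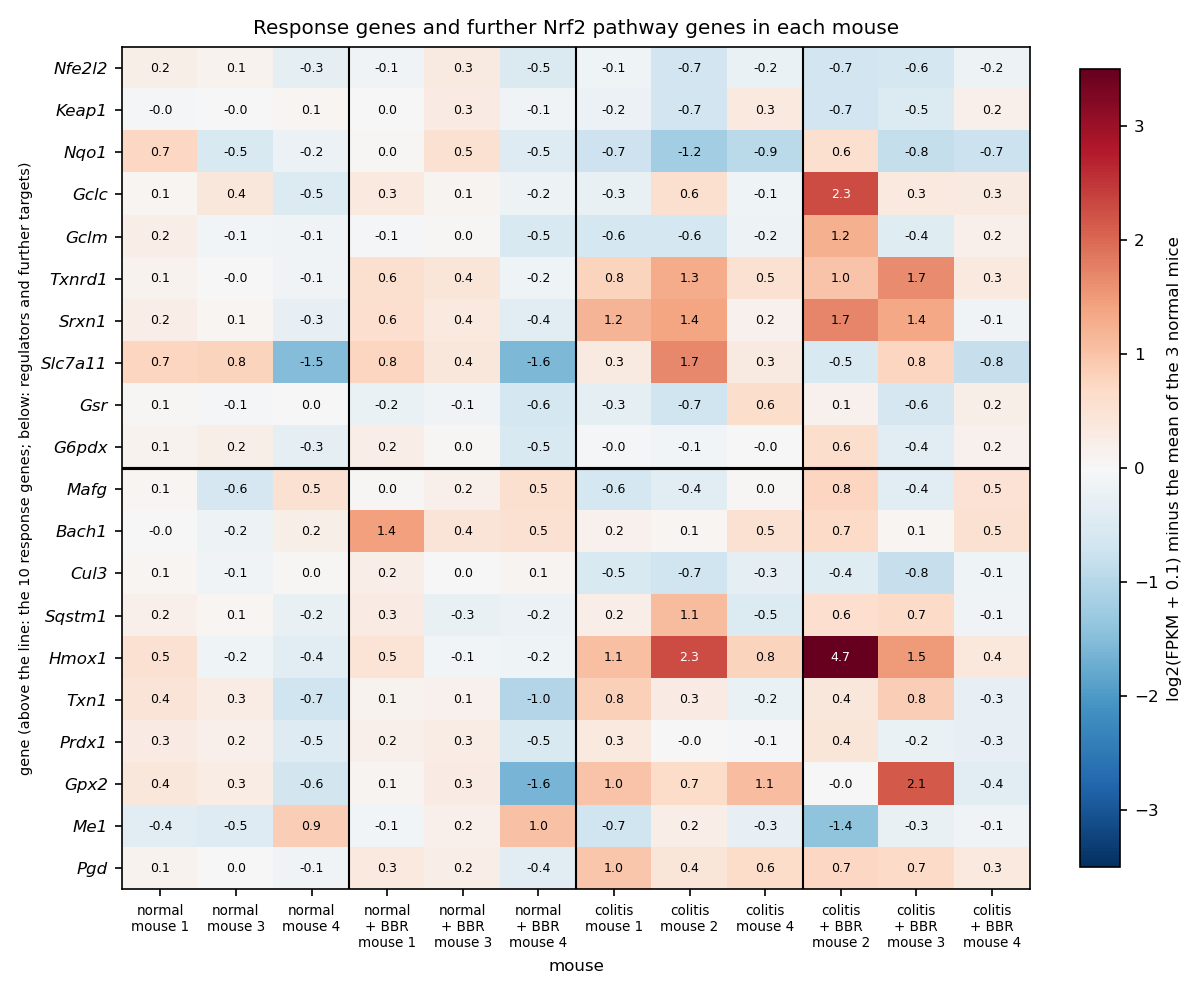
log2(FPKM + 0.1) minus the mean of the 3 normal mice, for the 10 response genes (above the line) and 10 further pathway genes (below), in each of the 12 mice. Red is above and blue below normal mice. Colitis mouse receiving BBR 2 carries the darkest cells, for Hmox1 and Gclc. Txnrd1 is above normal in all 6 mice with DSS and also in normal mice receiving BBR 1 and 3.

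Further genes of the pathway were taken from 5 lists. Of 14 regulators of Nrf2, 13 were lower and 1 was higher with DSS, averaged over both arms, with a median of -0.30 beside -0.36 over all genes. Under quantile normalization 8 were lower and 6 higher, and after centring on the median 5 were lower and 9 higher. Of them 2 passed the adjusted limit (14.3%, the same share as of all genes), both lower. Nfe2l3, a relative of Nrf2, fell by 1.34 (SE 0.29, adjusted p = 0.0218). Its level was 0.47 to 1.28 FPKM in the 6 mice without DSS and 0.17 to 0.59 FPKM in the 6 with DSS, with a small overlap. Cul3, the scaffold of the ligase that Keap1 serves, fell by 0.54 (SE 0.14, adjusted p = 0.0324). It was 25.7 to 33.0 FPKM without DSS and 16.1 to 25.2 FPKM with DSS, and these did not overlap. Under quantile normalization the Cul3 difference was -0.33 with an adjusted p of 0.0712, and after centring it was -0.15. The third by P was Btrc, an adaptor of another ligase for Nrf2, with -0.51 (adjusted p = 0.0553). The small Maf protein gene Mafg, with -0.14, and the repressor Bach1, with -0.068, were positive under both quantile normalization and centring. Sqstm1, which draws Keap1 into autophagy, was 0.36 (adjusted p = 0.300), and 0.16 to 0.56 with 1 mouse left out at a time.

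Of 28 other genes taught as Nrf2 targets, 13 were higher and 15 lower, the median was -0.13, and the 5 past the adjusted limit (14.3% of all genes) went both ways. Ephx1, the microsomal epoxide hydrolase, fell by 1.61 (SE 0.23, adjusted p = 0.0056). It was 16.4 to 21.1 FPKM in the 6 mice without DSS and 3.80 to 10.5 FPKM in the 6 with DSS, with no overlap. The glutathione transferase Gstm1 fell by 2.12 (SE 0.40, adjusted p = 0.0160). It was 128 to 391 FPKM without DSS and 28.2 to 146 FPKM with DSS, with overlap in the mice numbered 4. Ephx1 and Gstm1 kept an adjusted p under the limit in every fit without 1 mouse, up to 0.0205 and 0.0473. Gstm3 fell by 1.71 (adjusted p = 0.0459) and Ugdh, which makes UDP-glucuronic acid, by 1.35 (adjusted p = 0.0494). Gstm genes are near-identical copies, and their reads may be split between them. Pgd, a later enzyme of the pentose phosphate pathway than G6pdx, rose by 0.60 (SE 0.17, adjusted p = 0.0420). It was 90.9 to 150.6 FPKM without DSS and 150.5 to 232 FPKM with DSS. Hmox1 was 1.75 higher (SE 0.60, adjusted p = 0.0636), and 1.12 without colitis mouse receiving BBR 2. Gpx2 was 0.95 (adjusted p = 0.144), Txn1 0.43, Prdx1 0.046 and Me1 -0.61, and none of the 4 passed either limit. With 1 mouse left out at a time, Gpx2 was 0.56 to 1.19 and Txn1 0.24 to 0.58.

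Of 21 other antioxidant enzymes, 3 were higher and 18 lower with DSS, the median was -0.29, and 3 fell past the adjusted limit, beside 14.3% of all genes past it and 11.4% lower. Msrb2, a methionine sulfoxide reductase, fell by 1.61 (SE 0.27, adjusted p = 0.0105). It was 3.40 to 9.39 FPKM without DSS and 1.15 to 2.37 FPKM with DSS, and it stayed under the limit in every fit without 1 mouse. Cat, catalase, fell by 0.80 (adjusted p = 0.0472), and Prdx3, the mitochondrial peroxiredoxin, by 0.61 (adjusted p = 0.0489). After centring on the median, 13 of the 21 were higher and 8 lower, the Cat difference was -0.41 and the Prdx3 difference -0.22, neither past the limit.

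Of 11 tested genes for NADPH sources, 3 passed the adjusted limit and all 3 were higher with DSS, although the median of the list was -0.26, beside 2.85% of all genes past the limit and higher. They were H6pd, which makes NADPH in the endoplasmic reticulum, with 0.85 (SE 0.23, adjusted p = 0.0392), Pgd, and Idh1, the cytosolic isocitrate dehydrogenase, with 0.73 (SE 0.22, adjusted p = 0.0469). Under quantile normalization 4 of the 11 were past the limit, all higher, beside 4.69% of all genes. Of 14 genes for cystine, glutamate and glutathione handling, which include Gclc, Gclm, Gsr and Slc7a11, 9 had higher and 5 lower values, the median was 0.039 beside -0.36 over all genes, and none were past the adjusted limit, beside 14.3% of all genes. The lowest P-values were for Chac1 (1.57, adjusted p = 0.0674), Ggt5 (0.74, adjusted p = 0.0702) and Ggt1 (1.70, adjusted p = 0.0865), all of which degrade glutathione.

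Of the listed genes that passed, Nfe2l3 was past the limit in 7 of the 12 fits without 1 mouse, H6pd in 4 and Idh1 in 3. Cul3, Pgd, Gstm3, Ugdh, Cat and Prdx3 were past it in 2 of 12, with adjusted p-values of up to 0.112 in the others. Within colitis mice, none of the listed genes passed the adjusted limit for BBR, and 6 of the 79 tested that are not among the 10 had an unadjusted P of at most 0.05, beside 6.39% of all genes. Abcc4 (1.04, SE 0.27) and Cbr3 (1.66, SE 0.69) were higher at the unadjusted limit. Prdx4 (-1.60, SE 0.38), Ggt5 (-1.45, SE 0.37), Gpx3 (-1.10, SE 0.41) and H6pd (-0.99, SE 0.33) were lower at that limit, and the lowest adjusted p of these 6 was 0.435. Without mouse 2 the Cbr3 difference was 0.74 with a limma P of 0.160. With 1 mouse left out at a time, the difference was -1.40 to -0.52 for Gpx3 and -1.28 to -0.69 for H6pd. It was -1.80 to -1.08 for Ggt5, -1.92 to -1.09 for Prdx4 and 0.84 to 1.17 for Abcc4.

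The genes whose levels were most like each member were sought among 11943 genes with a mean of at least 1 FPKM, by Pearson's r of log2 levels over the 12 mice. For Txnrd1 they were Plaur (0.95), Gm11545 (0.95) and Ffar4 (0.94), and for Srxn1 they included Lypd8 (0.96) and AA467197 (0.95). For Gclm they were Cbr3 (0.95), Gstp1 (0.88) and Rnf185 (0.86), of which Cbr3 and Gstp1 are taught as Nrf2 targets, and without colitis mouse receiving BBR 2 they were 0.92, 0.77 and 0.66. For Gclc they were Slc6a19 (0.90), Ftl1 (0.90) and Gm3776 (0.89), which were 0.57, 0.76 and 0.65 without that mouse. For G6pdx the first was Gstp1 (0.93), for Nqo1 Tmem129 (0.95), for Nfe2l2 Cdpf1 (0.97), for Keap1 Drosha (0.97), for Slc7a11 Psmg4 (0.94) and for Gsr Preb (0.90). To the mean of the 10 genes the most alike were Pigr (0.88), Uqcrq (0.86), Babam2 (0.86), Copz1 (0.85) and Prdx1 (0.85). These values describe 12 points in 4 groups and in the sets of mice described above, and other measures of likeness picked mostly other genes.

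Among the members themselves, Gclm and G6pdx had an r of 0.78, and 0.61 without colitis mouse receiving BBR 2. Gclc and Gclm, which form 1 enzyme, had an r of 0.76 that was 0.086 without that mouse. Nfe2l2 and Keap1 had an r of 0.72, and Keap1 and Srxn1 one of -0.79. Leaving out each of the 12 mice in turn, the r of Gclc and Gclm ranged from 0.086 to 0.86 and that of Txnrd1 and Srxn1 from 0.87 to 0.92.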

How the data were processed

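RNA of 12 mice was sequenced, 3 in each of 4 groups taken from the labels. The authors filtered reads with SOAPnuke, aligned them with Bowtie2 2.2.5 to mm9 and ran RSEM 1.2.12. The values the authors deposited, which RSEM estimated per gene and mouse, carry no unit and were read as FPKM, although TPM cannot be told apart. Labels and methods differ on the tissue (colorectum, rectum), the library kit, the sequencer and the duration of BBR. Genes with a mean of 0.1 FPKM or more (15315) were taken to log2(FPKM + 0.1). A limma 3.58.1 fit (R 4.3.3) of all mice had a mean for each group and a trend, with Benjamini-Hochberg adjustment over these genes in each of 7 comparisons. P-values measure the spread between these mice. Permutation tests, promoter matches and correlations used Python 3.11.15, NumPy 2.4.6, pandas 2.3.3 and SciPy 1.17.1, and the fits were tested on simulated data. All 10 members were named in every comparison, of the lists each gene past the adjusted limit or else the 3 with the lowest P, and 10 further genes in any case. Gsta1, Ftl1, Blvrb and the pattern of 1 mouse were picked after their values were seen. For likeness, the 3 genes with the highest r to each member were taken, of which the text gives only the first for 6 members, and 1 such gene is not reported here. The members and lists were chosen with earlier results of these data known. Alternatives were other pseudocounts, filters and scalings, no trend, the compared groups alone, blocks, and leaving out mice.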

Additional observations from a re-analysis of the deposited data

How the results depend on the processing

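The log2 differences of the 10 genes in 7 comparisons were recomputed under 23 other settings, which gave 1573 values. Of these, 1439 kept their direction and their side of the adjusted limit, 13 newly passed it, 12 no longer passed it and 109 changed sign, all of them with a difference of at most 0.38 in size in the reported fit. Of 503 values of 48 differences of listed genes, 30 no longer passed the limit, 14 newly passed it and 11 changed sign, with single mice not counted. The count of the 10 genes past the adjusted limit was 0 for colitis against normal mice, and 2 with a block for the mice numbered 4 (9.22% of all genes) and 1 in the mice numbered 1 to 3 alone (5.25%). For DSS averaged over both arms it was 1 (14.3% of all genes), and 0 with no filter (9.65%), 0 with no trend (12.1%), 2 with the replicate block (16.1%), 2 with a block for the mice numbered 4 (34.9%) and 4 in the mice numbered 1 to 3 alone (40.4%). It was 0 to 2 when 1 mouse was left out, where 2.08% to 38.8% of all genes passed. For DSS with BBR in both groups it was 0, and 1 in the mice numbered 1 to 3 alone (15.0% of all genes) and 0 to 2 when 1 mouse was left out (0 to 14.7%). The block of the mice numbered 4 and the fit of the mice numbered 1 to 3 were chosen after seeing the data, and the cause of these moves was not tested.

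Quantile normalization turned the sign of Keap1 (0.075), Gsr (0.033), G6pdx (0.061) for colitis against normal mice, Slc7a11 (0.48) for DSS with BBR in both groups, Keap1 (0.015), Mafg (0.19), Bach1 (0.22) for DSS averaged over both arms, Keap1 (0.021) for BBR averaged over both arms and Nfe2l2 (0.075) for the interaction. Centring on the median turned the sign of Keap1 (0.15), Gsr (0.21), G6pdx (0.28) for colitis against normal mice, Nfe2l2 (0.020), Keap1 (0.0090), Prdx1 (0.024), Pgd (0.058) for BBR in colitis mice, Nfe2l2 (0.075), Keap1 (0.068), Nqo1 (0.073), Slc7a11 (0.39) for DSS with BBR in both groups, Nfe2l2 (0.030), Keap1 (0.11), Mafg (0.25), Bach1 (0.33) for DSS averaged over both arms, Keap1 (0.051) for BBR averaged over both arms and Nfe2l2 (0.089), Srxn1 (0.0010) for the interaction. The mice numbered 1 to 3 alone turned the sign of Gclc (-0.084) for colitis against normal mice, Cul3 (-0.0012), Sqstm1 (-0.044), Gpx2 (0.25), Pgd (0.0088) for BBR in colitis mice, Gclc (-0.022) for BBR in normal mice, Gsr (-0.033), G6pdx (-0.033) for DSS with BBR in both groups, Gclm (-0.12), Slc7a11 (-0.12), Gsr (-0.27), G6pdx (-0.13), Prdx1 (-0.090) for DSS averaged over both arms and Keap1 (0.022), Gsr (0.054) for BBR averaged over both arms. A pseudocount of 0.01 turned the sign of Slc7a11 (0.018) for DSS with BBR in both groups. Centring and quantile normalization take out the shift of all genes by construction, and the cause of the other sign changes was not tested. When 1 mouse was left out, the lowest and highest differences of results that changed sign in some fit were Keap1 (-0.45 to 0.062), Gclc (-0.20 to 0.25), Gsr (-0.50 to 0.15), G6pdx (-0.21 to 0.046) for colitis against normal mice, Keap1 (-0.39 to 0.12), Txnrd1 (-0.20 to 0.45), Srxn1 (-0.32 to 0.62), Gsr (-0.23 to 0.43), G6pdx (-0.065 to 0.44), Ggt1 (-2.09 to 0.22), Cul3 (-0.10 to 0.22), Sqstm1 (-0.29 to 0.51), Hmox1 (-0.44 to 1.73), Txn1 (-0.25 to 0.32), Prdx1 (-0.35 to 0.0036), Gpx2 (-1.10 to 0.16), Me1 (-0.58 to 0.065), Pgd (-0.22 to 0.051) for BBR in colitis mice, Nfe2l2 (-0.31 to 0.092), Keap1 (-0.056 to 0.14), Nqo1 (-0.22 to 0.40), Gclc (-0.15 to 0.28), Srxn1 (-0.026 to 0.47), Slc7a11 (-0.90 to 0.58), G6pdx (-0.24 to 0.14) for BBR in normal mice, Slc7a11 (-0.78 to 0.39), G6pdx (-0.039 to 0.46) for DSS with BBR in both groups, Gclm (-0.20 to 0.22), Slc7a11 (-0.022 to 0.58), Gsr (-0.13 to 0.20), G6pdx (-0.046 to 0.20), Mafg (-0.29 to 0.029), Bach1 (-0.16 to 0.089), Prdx1 (-0.080 to 0.12) for DSS averaged over both arms, Keap1 (-0.17 to 0.089), Srxn1 (-0.067 to 0.40), Gsr (-0.28 to 0.050), G6pdx (-0.072 to 0.18) for BBR averaged over both arms and Nfe2l2 (-0.22 to 0.18), Keap1 (-0.45 to 0.061), Txnrd1 (-0.48 to 0.18), Srxn1 (-0.50 to 0.44) for the interaction. Where that left a group with 2 mice, the shared estimate of the spread was used.

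Deviations from group means correlated with r of 0.357 to 0.751 in pairs of mice numbered 4. Among the mice numbered 1 to 3 the mean r was 0.21 in pairs sharing a number (0.078 to 0.386) and 0.19 in pairs with different numbers (-0.15 to 0.456), so these numbers showed no pairing, and it was not used in the reported fit. The fit with the replicate number as a block (replicate block) turned the sign of Keap1 (0.0021), Gclc (-0.37) for colitis against normal mice and Gclm (-0.17), G6pdx (-0.00045) for DSS averaged over both arms. With this block Txnrd1 and Srxn1 passed the adjusted limit for DSS averaged over both arms (0.0305 and 0.0293).

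The table holds no counts. With 3 mice a group the 95% intervals of single genes spanned 1.12 (Nfe2l2) to 3.39 (Slc7a11) on the log2 scale in each comparison of 2 groups, so smaller changes may have been missed. The lowest values of Slc7a11 rested on few reads.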
